A study of Mus musculus with 4 samples.

Results

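Glycosylation enzymes were compared between colon tumours of mice given an antibody against MAdCAM-1 and tumours of mice given control IgG. The enzymes were taken from the gene table by symbol: the Mgat, B3gnt, B3gal, B4gal, Galnt, Gcnt, Fut, St3gal, St6gal, St8sia, Chst, C1galt, A4g, Alg, Man1 and Man2 families. This gave 100 of 14979 listed genes, of which 96 had enough tags to be tested and 4 (Mgat5b, Fut1, Fut10 and Chst7) did not. All 4 mice carried tumours of the AOM/DSS model, in which the carcinogen azoxymethane is combined with dextran sulfate sodium, a polymer that inflames the colon. From each group 2 mice had been picked, by a rule not given in the sources used here, and each gave 1 library, named IgG 1, IgG 2, MAdCAM1 1 and MAdCAM1 2. Strain, sex, age, dose and duration of the antibodies are not given in the sources used here. RNA was measured by cap analysis of gene expression (CAGE), which counts 1 short tag per capped 5′ end, so that levels need no division by gene length. Levels are TMM-scaled CPM, that is, tags of a gene relative to the size of its library. Each log2 fold change is positive where the MAdCAM1 level was the higher one.

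Glycans are built in the endoplasmic reticulum and Golgi by enzymes that each add or remove a sugar. N-glycans start as a lipid-linked precursor made by Alg enzymes, are trimmed by mannosidases and then branched by Mgat enzymes. Mucin O-glycans start with a GalNAc placed by a Galnt enzyme and receive a core from C1galt1 or some Gcnt enzymes. They are then lengthened by galactose and GlcNAc transferases and capped with fucose, sialic acid or sulfate. In the colon, O-glycans make up most of the mass of the mucins that goblet cells secrete, and glycans of both kinds coat the surface cells.

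The 4 libraries held 14850923 to 16891234 tags, and 1 tag equalled 0.0569 to 0.0700 CPM. Markers of the colon tissue named in the labels were present in each library: the summed level of 5 epithelial genes (Epcam, Cdh1, Krt8, Krt18 and Krt19) was 4808 to 5486 CPM in IgG and 7192 to 8445 CPM in MAdCAM1. Of 5 tested B and plasma cell markers 2 lay above in both MAdCAM1 libraries, against 19.7% of all tested genes. They were Mzb1 (0.285 and 0.433 against 1.33 and 8.74 CPM) and Jchain (8.14 and 35.4 against 42.7 and 450 CPM). The sums of that list overlapped, at 400 and 324 against 346 and 769 CPM. Sdc1, which overlapped at 381 and 285 against 301 and 245 CPM, made up most of the sum in IgG 1, IgG 2 and MAdCAM1 1. Sums of smooth muscle and fibroblast markers separated the libraries in other ways. The summed smooth muscle level of the 5 listed markers was 1657 and 1877 CPM in IgG 1 and MAdCAM1 2, against 89.1 and 106 CPM in IgG 2 and MAdCAM1 1. Fibroblast sums over 6 genes were 1153 and 1506 CPM in IgG 2 and MAdCAM1 2, against 399 and 424 CPM in the other libraries. In bulk tumours, fewer cells of a type and less RNA per cell cannot be told apart.

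Mgat4c, with its paralog Mgat4a, and the extension and fucosylation genes B3gnt7 and Fut4 are shown first by the sequence before their RefSeq start sites, because the results turn on them. Each window is the 250 bases upstream of the start, 5′ to 3′, from RefSeq on GRCm38.p6, the build of that sequence table. Capitals mark exact matches, on either strand, to TATAAA (the TATA box), GGGCGG (a GC box) or CACGTG (an E-box).
Mgat4c, the most downstream of its 4 starts, chr10:102374187-102374436, plus strand: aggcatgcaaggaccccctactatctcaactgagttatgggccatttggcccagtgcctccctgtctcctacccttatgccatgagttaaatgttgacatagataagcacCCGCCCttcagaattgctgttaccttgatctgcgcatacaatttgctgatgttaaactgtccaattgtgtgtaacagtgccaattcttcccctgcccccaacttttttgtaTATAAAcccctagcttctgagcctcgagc
Mgat4a, the more upstream of its 2 starts, chr1:37541017-37541266, minus strand: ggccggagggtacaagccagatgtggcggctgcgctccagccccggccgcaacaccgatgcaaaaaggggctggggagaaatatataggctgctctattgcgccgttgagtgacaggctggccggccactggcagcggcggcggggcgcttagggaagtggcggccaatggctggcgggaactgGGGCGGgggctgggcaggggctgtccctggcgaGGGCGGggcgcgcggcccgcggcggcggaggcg
B3gnt7, its single start, chr1:86302971-86303220, plus strand: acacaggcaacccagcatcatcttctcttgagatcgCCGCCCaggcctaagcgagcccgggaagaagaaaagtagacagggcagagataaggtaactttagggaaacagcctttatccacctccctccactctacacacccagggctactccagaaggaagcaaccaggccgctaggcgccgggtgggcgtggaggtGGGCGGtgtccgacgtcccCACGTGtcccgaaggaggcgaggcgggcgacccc
Fut4, its single start, chr9:14752123-14752372, minus strand: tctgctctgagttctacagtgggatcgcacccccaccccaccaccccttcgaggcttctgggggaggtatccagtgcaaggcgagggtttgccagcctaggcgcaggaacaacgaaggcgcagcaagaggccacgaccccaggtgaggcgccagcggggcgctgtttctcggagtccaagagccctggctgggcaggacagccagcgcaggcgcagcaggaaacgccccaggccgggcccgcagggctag
The Mgat4c window shown was chosen after the search because it alone of the 4 held TATAAA, beginning 29 bases before the start. Of all 32851 RefSeq windows of that length, 12.4% held TATAAA, 32.7% GGGCGG and 6.02% CACGTG on either strand. GC content was 26.8% to 47.6% in the 4 Mgat4c windows, 72.4% in the Mgat4a window shown and 33.6% in its other window, and had a median of 52.4% over all windows. RefSeq windows were matched for 73 of the 96 tested members, with 93 starts, a median GC content of 60% and GGGCGG in 59.1%. TATAAA was found in 4.301% of these windows. Cdx (TTTATG) and HNF4 (CAAAGTCC) cores were found in 5.38% and 2.15% of member windows, against 10.8% and 1.20% of all windows. The gene table gives 1 value per gene and library, which does not show which start was used.

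Across the members, more were higher in both MAdCAM1 libraries than lower in both. Both MAdCAM1 values exceeded both IgG values for 40 of 96 tested members, a pattern found in 19.7% of all tested genes. Both lay below for 10 members, against 18.7% of all tested genes. With scaling by library size alone, which moved the median of all genes to −0.10, the counts were 33 and 16, against 13.6% and 28.6% of all genes. The median log2 fold change was 0.22, against −0.00 over all genes, and single members ranged from −1.43 to 3.25. No member passed edgeR's quasi-likelihood test with Benjamini-Hochberg adjustment over all 14331 tested genes (0 of 96; background 0% in each direction), and the smallest adjusted p was 0.640. Without adjustment, p was under 0.05 for 18 members higher and 2 lower, where all genes gave 5.09% and 1.82%. DESeq2 called 6 members higher and 1 lower (1.54% and 0.147% of all genes), edgeR's exact test called 4 higher and 0 lower (1.03% and 0.0628%), and limma-voom called 0 (0% in each direction).

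General epithelial genes were higher in both MAdCAM1 libraries as well for 4 of 5, and the part of epithelial content in the enzyme values was not tested. Krt18 overlapped, at 480 and 523 CPM (IgG) against 504 and 396 CPM (MAdCAM1), with a log2 fold change of −0.16. The mean log2 fold change of the 5 epithelial genes was 0.48. Expressed relative to them, both MAdCAM1 values were above for 18 members and below for 35, against 4.47% and 61.3% of all genes. The 18 included B3gnt7, B3galt5, Mgat4c, Chst4, St6galnac6, Fut4, B3gnt5, A4gnt and Galnt6. No Alg or mannosidase gene was among them. IgG 2 was the lowest of the 4 libraries for 46 of 96 members, against 30.1% of all tested genes, and it also had the lowest goblet cell marker level.

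**Figure D1:**
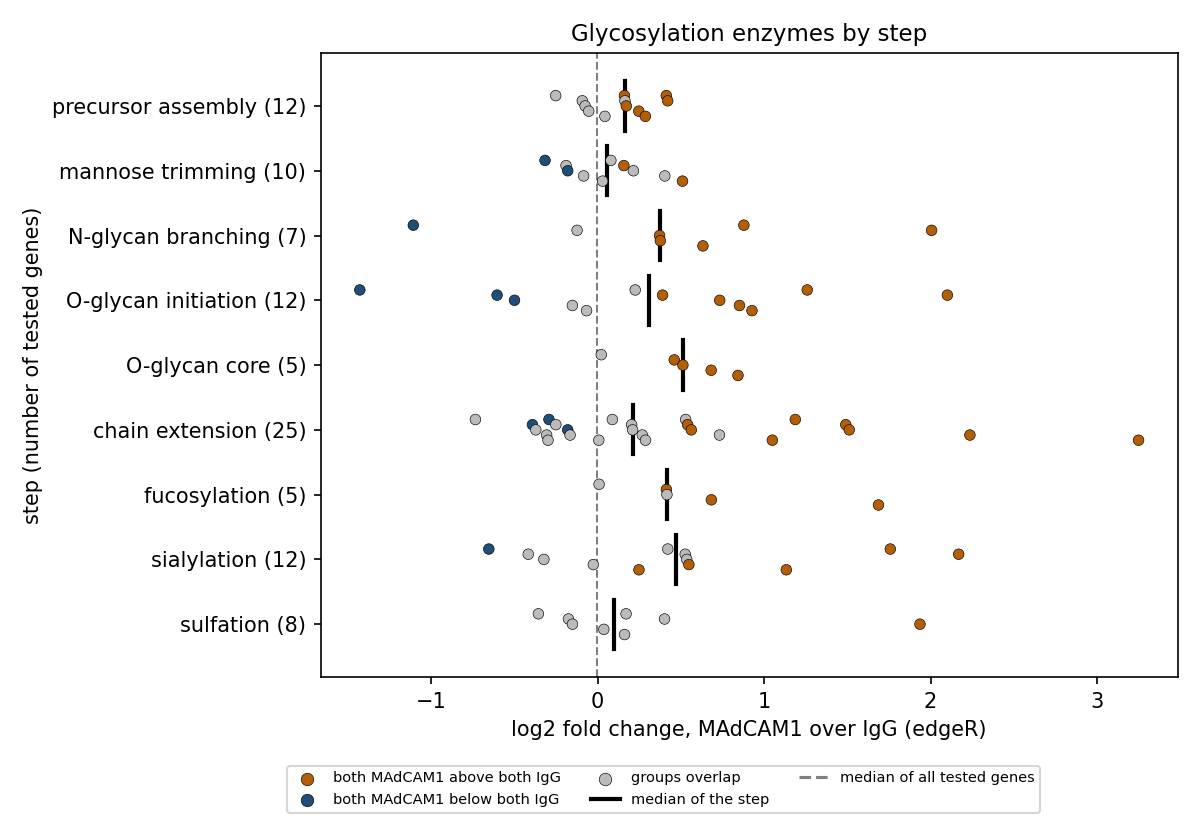
Each point is 1 tested gene at its log2 fold change, MAdCAM1 over IgG (horizontal axis), by step of glycan synthesis (vertical axis, number of tested genes in parentheses). Orange and blue points are genes whose libraries do not overlap between groups, the black bars are step medians (0.05 for mannose trimming to 0.51 for the O-glycan core), and the points farthest right are B3gnt7 at 3.25 and B3galt5 at 2.24.

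All 12 Alg genes were tested, with fold changes of −0.25 to 0.42 on the log2 scale and 0.16 as the median. Of these, 6 were higher in both and 0 lower in both, beside 19.7% and 18.7% of all genes. Alg9, a mannosyltransferase of the lipid-linked precursor, stood at 22.5 and 18.2 CPM (IgG) against 29.5 and 25.0 CPM (MAdCAM1), which did not overlap. Alg6, which adds the first glucose, stood at 13.2 and 11.6 against 16.9 and 16.1 CPM. The dolichol-phosphate glucose synthase Alg5 was the most abundant at 92.3 and 95.1 against 103 and 108 CPM. Alg8, the next glucosyltransferase, stood at 17.5 and 19.5 against 22.8 and 22.4 CPM. These gaps of 0.17 to 0.42 on the log2 scale had quasi-likelihood adjusted p-values between 0.760 and 0.836 in edgeR. Relative to the epithelial genes 8 of the 12 were lower in both MAdCAM1 libraries and 0 were higher, shares near the 61.3% and 4.47% of all genes.

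Mannose trimming genes had a median of 0.05, near that of all genes. Of the 10, 2 were higher in both and 2 lower in both, near the 19.7% and 18.7% of all genes. Man2b2, a lysosomal mannosidase, stood at 15.4 and 27.2 CPM with IgG against 29.3 and 31.3 CPM with the antibody. The Golgi mannosidase II gene Man2a2 lay below in both libraries, at 22.3 and 22.6 against 14.6 and 21.4 CPM, so that IgG 1 and MAdCAM1 2 nearly met. The cytosolic Man2c1 also lay below in both, at 37.8 and 39.03 against 32.8 and 35.0 CPM. Golgi mannosidase I, Man1a2, overlapped at 147, 106, 151 and 143 CPM (IgG 1, IgG 2, MAdCAM1 1, MAdCAM1 2, the order used below). Man2c1os, counted among the 10, is an antisense RNA that overlaps the start of Man2c1, and its values also overlapped. The median turned to −0.23 without MAdCAM1 2.

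Branching genes of N-glycans were higher in both MAdCAM1 libraries for 5 of 7 tested members, led by Mgat4c, and lower in both for 1. Of all tested genes, 19.7% were higher in both and 18.7% lower. Mgat4c (ENSMUSG00000019888; chromosome 10, 101517348 to 102228383 on GRCm39) belongs by sequence to the Mgat4 family, whose members Mgat4a and Mgat4b place a β1,4-linked GlcNAc on an antenna. It had 814 and 656 tags in the IgG libraries and 2691 and 2483 tags in the MAdCAM1 libraries, or 46.3 and 40.6 against 188 and 161 CPM. The gap between the groups was far wider than that between mice of either group. The log2 fold change was 2.01 (SE 0.17, n = 2 per group; 4.02-fold), with an edgeR quasi-likelihood adjusted p of 0.640. DESeq2 gave an adjusted p of 5.81e-16 and edgeR's exact test 3.25e-08. Mgat4c was singled out with this difference already known, so its size is a description.

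The paralogs of Mgat4c were higher by less. Mgat4b (chromosome 11, 50101717 to 50125942) stood at 38.6 and 34.02 CPM (IgG) against 62.6 and 70.9 CPM (MAdCAM1) (log2 fold change 0.88, SE 0.16). Its locus overlaps Sqstm1 on the opposite strand, and whether strand was used in counting is not given in the sources used here. Mgat4a (chromosome 1, 37478421 to 37580127) stood at 51.3 and 54.5 against 93.9 and 70.2 CPM (log2 fold change 0.63, SE 0.19). Of the tags of the 3 genes together, Mgat4c held 34.02% (95% Clopper-Pearson interval 32.1 to 36.0%) and 31.4% (29.4 to 33.5%) in the IgG libraries. In the MAdCAM1 libraries it held 54.6% (53.2 to 56.0%) and 53.3% (51.8 to 54.7%). These intervals cover counting error only. Mgat4c had the middle of the 3 levels in IgG 1 and IgG 2 and the highest in both MAdCAM1 libraries.

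Set against its paralogs within each library, Mgat4c still separated the groups. Its log2 CPM minus the mean of Mgat4a and Mgat4b was 0.06 and −0.09 in IgG and 1.30 and 1.19 in MAdCAM1, a difference of 1.26. The two-sided exact permutation test gave p = 0.333, the smallest that groups of 2 allow. Leaving out each library in turn gave differences of 1.18 to 1.33. Relative to the 5 epithelial genes, the Mgat4c log2 fold change was 1.53, and Mgat4b also stayed higher in both MAdCAM1 libraries, at 0.40.

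Other branching enzymes were mixed. Mgat1, which starts complex N-glycans, stood at 30.1, 23.4, 30.9 and 38.3 CPM, so that IgG 1 and MAdCAM1 1 nearly met. Mgat5, which makes the β1,6 branch, stood at 117, 77.8, 132 and 120 CPM, without overlap but with IgG 1 close to MAdCAM1 2. Mgat2, which starts the second antenna, overlapped at 61.7, 48.3, 40.8 and 60.2 CPM. Mgat3, whose bisecting GlcNAc blocks further branching, was the branching gene lower in both, at 20.5 and 11.8 CPM with IgG against 4.90 and 10.1 CPM with the antibody (log2 fold change −1.11, SE 0.50). Its values in IgG 2 and MAdCAM1 2 were close, and the fold change was −0.66 without IgG 1, −0.68 without MAdCAM1 1 and −1.72 without MAdCAM1 2. Mgat5b had 3 and 3 tags in IgG and 0 and 0 in MAdCAM1, too few to test, and it shares these counts with BC024139.

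**Figure D2:**
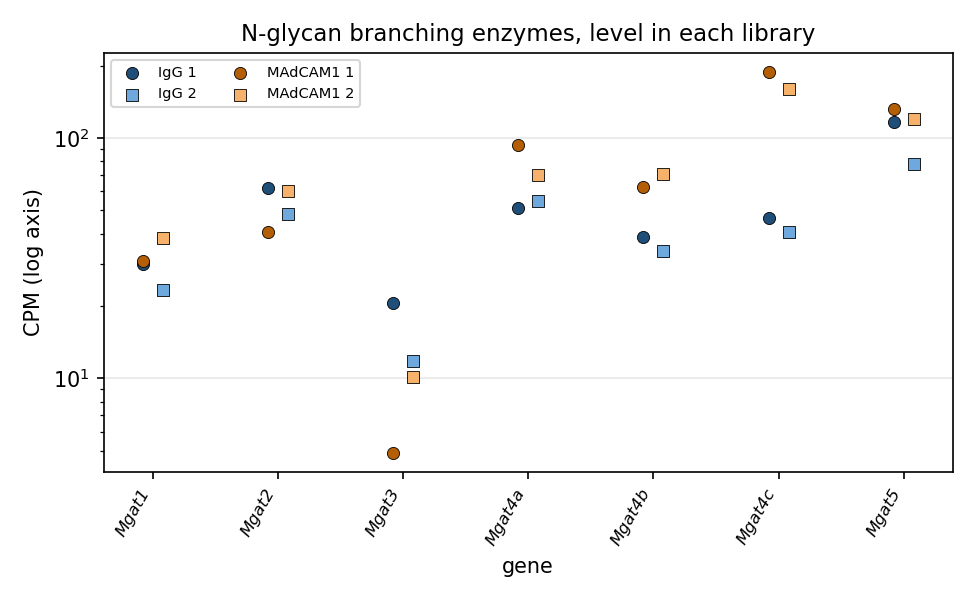
Level of each tested Mgat gene in CPM (vertical log axis) in the 4 libraries, with circles and squares for mice 1 and 2 of each group. Mgat4c stands at 46.3 and 40.6 CPM (IgG) against 188 and 161 CPM (MAdCAM1), the widest gap of the family, and Mgat3 is the one gene with both MAdCAM1 points lowest.

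Among the Galnt enzymes that start O-glycans, both MAdCAM1 values were above both IgG values for 6 of 12 tested genes and below them for 3, beside 19.7% and 18.7% of all genes. Galnt6 stood at 25.8 and 11.8 CPM with IgG against 48.2 and 41.8 CPM with the antibody. Galnt7, which acts on peptides that already carry GalNAc, stood at 68.1 and 32.8 against 97.9 and 94.1 CPM. Galnt12 stood at 80.02 and 32.0 against 96.6 and 106 CPM. In all 3 the lowest value was that of IgG 2, and for Galnt12 IgG 1 lay nearer to the MAdCAM1 libraries than to IgG 2. The log2 fold change of Galnt12 was 1.64 without IgG 1 and 0.33 without IgG 2. Galnt10 differed more evenly, at 58.6 and 48.2 against 94.1 and 83.4 CPM (log2 fold change 0.73, SE 0.17; edgeR quasi-likelihood adjusted p = 0.665). Galnt5 rested on 8 and 2 tags against 20 and 18.

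Galnt3, an initiating enzyme of epithelial mucins, overlapped at 164, 117, 167 and 162 CPM. Galnt4 stood at 77.3 and 65.2 against 94.6 and 92.2 CPM, but its counts equal those of Poc1b, which shares its locus, so that the 2 genes cannot be told apart. Galnt18 (chromosome 7, 111070855 to 111379410) was the member furthest lower, at 24.2 and 23.4 CPM (IgG) against 6.79 and 10.9 CPM (MAdCAM1). Its log2 fold change was −1.43 (SE 0.29), with an edgeR quasi-likelihood adjusted p of 0.665 and a DESeq2 adjusted p of 0.0250. Galnt2, named after its values were seen, also lay below in both libraries, at 85.1 and 81.5 against 46.1 and 71.7 CPM. Galnt2l, the remaining one, shares its counts with Usp10.

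Genes of the C1galt and Gcnt families, grouped as the O-glycan core, were higher in both MAdCAM1 libraries for 4 of 5 tested members. None was lower in both, beside 19.7% and 18.7% of all genes, and the median was 0.51. The remaining member, Gcnt2, which was grouped here by its symbol alone, overlapped at 35.5, 26.6, 27.4 and 35.7 CPM. C1galt1, which makes core 1, stood at 91.4 and 50.4 CPM with IgG against 100 and 102 CPM with the antibody. Its chaperone C1galt1c1 (Cosmc), without which the enzyme does not fold, stood at 25.6 and 26.7 against 38.7 and 33.3 CPM. The core 2 enzyme Gcnt1 stood at 16.3 and 6.12 against 19.2 and 21.0 CPM. Among these 4 higher genes the 2 IgG mice were close together for C1galt1c1 and for Gcnt4, another core 2 enzyme (6.26 and 5.75 against 11.1 and 8.16 CPM). For C1galt1 and Gcnt1 the gap between IgG 1 and IgG 2 exceeded that between IgG 1 and the MAdCAM1 libraries. Without IgG 2 their log2 fold changes were 0.14 and 0.30, and without IgG 1 they were 0.99 and 1.70. Relative to epithelial genes the step had 1 member of 5 higher in both, Gcnt4, and 1 lower in both, Gcnt2. On that scale 4.47% of all genes were higher in both and 61.3% lower in both.

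Chain extension held the members with the widest differences. B3gnt7 (chromosome 1, 86230554 to 86235027), which adds GlcNAc to lengthen lactosamine and keratan sulfate chains, had 839 and 178 tags with IgG against 4246 and 4049 tags with the antibody. This was 47.8 and 11.01 against 297 and 262 CPM, so that the MAdCAM1 libraries were nearer to each other than the IgG libraries were. Its log2 fold change was 3.25 (SE 0.77; 9.51-fold), with adjusted p-values of 0.671 in edgeR's quasi-likelihood test, 0.00882 in its exact test and 9.34e-05 in DESeq2. The value was 4.65 without IgG 1 and 2.54 without IgG 2. A transcript on the opposite strand, Gm28626, overlaps the B3gnt7 locus.

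B3galt5 (chromosome 16, 96036699 to 96121060), which caps chains with β1,3-galactose to form type 1 chains, stood at 21.8 and 10.1 CPM (IgG) against 73.9 and 76.5 CPM (MAdCAM1). The log2 fold change was 2.24 (SE 0.42; 4.71-fold), with adjusted p-values of 0.665 in edgeR's quasi-likelihood test, 0.000845 in its exact test and 0.000124 in DESeq2. B3gnt3, which extends core 1, stood at 210 and 84.1 against 264 and 344 CPM. B4galnt3, which places GalNAc on GlcNAc, stood at 16.5 and 4.02 against 24.3 and 22.5 CPM, and its log2 fold change was 2.52 without IgG 1 and 0.50 without IgG 2. A4gnt, known for the α-linked GlcNAc of gland mucins, was low at 1.42 and 0.866 against 3.43 and 3.04 CPM. B3gnt5, which starts lacto-series glycolipids and was named after its values were seen, stood at 43.9 and 14.7 against 84.9 and 82.4 CPM.

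Of all 25 extension genes, 8 were higher in both, 3 lower in both and 14 overlapped, and the median was 0.21. The shares over all tested genes were 19.7% higher in both and 18.7% lower in both. The galactosyltransferase B4galt4 stood at 10.6 and 10.1 CPM with IgG against 14.5 and 16.1 CPM with the antibody. B4galt1, the main β1,4-galactosyltransferase, overlapped at 173, 116, 191 and 162 CPM. B4galnt2, which makes the Sd(a) antigen of colon glycans, was set apart by 1 library, with 13.0 CPM for IgG 1 beside 80.5, 79.1 and 55.6 CPM in the other libraries. The value of 0.53 (log2 fold change) became −0.27 without IgG 1 and 2.37 without IgG 2.

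**Figure D3:**
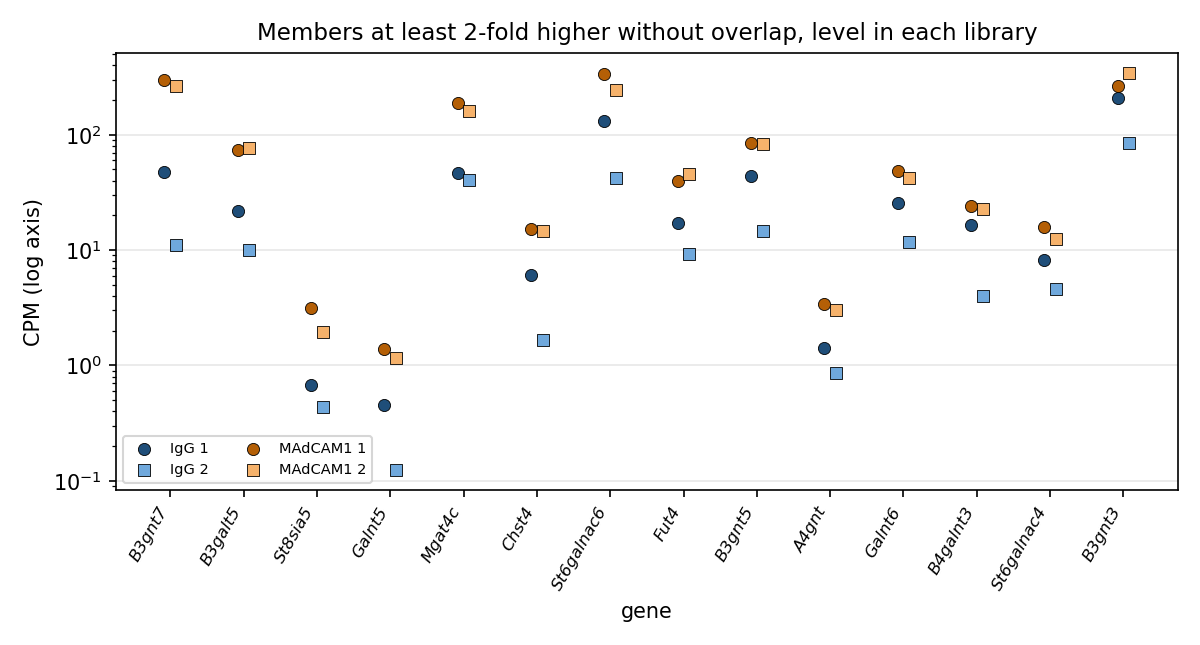
Level in CPM (vertical log axis) in each library for the 14 members whose fold change was at least 2 and whose groups did not overlap, ordered from B3gnt7 to B3gnt3. In all 14 the lower IgG point is IgG 2 (pale blue squares), and the MAdCAM1 points lie closer together than the IgG points for B3gnt7 (297 and 262 against 47.8 and 11.01 CPM).

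Among the fucosyltransferases, 3 of 5 tested genes lay above in both MAdCAM1 libraries and 0 below, beside 19.7% and 18.7% of all genes. The median was 0.42. Fut4 (chromosome 9, 14659616 to 14663689), which makes Lewis x, stood at 17.3 and 9.34 CPM (IgG) against 39.8 and 46.1 CPM (MAdCAM1). Its log2 fold change was 1.69 (SE 0.35; 3.22-fold), with adjusted p-values of 0.665 in edgeR's quasi-likelihood test, 0.0208 in its exact test and 0.00654 in DESeq2. Fut8, which adds the core fucose of N-glycans, stood at 63.2 and 56.7 against 98.2 and 94.2 CPM, a small but even gap (log2 fold change 0.68, SE 0.14; DESeq2 adjusted p = 0.0477). Fut2, the α1,2-fucosyltransferase of intestinal mucins, stood at 82.3 and 111 against 141 and 116 CPM, so that IgG 2 and MAdCAM1 2 nearly met. Fut9, a second Lewis x enzyme, overlapped at 17.2, 5.07, 19.3 and 10.4 CPM.

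Sialyltransferases were higher in both for 5 of 12 members and lower in both for 1, against 19.7% and 18.7% of all genes. Their median of 0.47 became 0.02 without MAdCAM1 2. St6galnac6 (chromosome 2, 32489721 to 32510825), which adds α2,6-sialic acid to GalNAc or GlcNAc, was the highest member of the step in both MAdCAM1 libraries, at 130 and 42.4 CPM with IgG against 339 and 246 CPM with the antibody. Its log2 fold change was 1.76 (SE 0.60; edgeR quasi-likelihood adjusted p = 0.712), and it was 2.77 without IgG 1 and 1.16 without IgG 2. St6galnac4, of the same family, stood at 8.25 and 4.64 against 15.9 and 12.4 CPM. St3gal6, which sialylates lactosamine, stood at 84.2 and 73.9 against 132 and 99.2 CPM. St8sia5, a ganglioside sialyltransferase, rested on 12 and 7 tags against 45 and 30.

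St3gal1, which caps core 1 and so stops its extension, was the sialyltransferase lower in both, at 12.9 and 19.98 CPM (IgG) against 10.99 and 9.91 CPM (MAdCAM1). St3gal3 was slightly higher in both, at 22.1 and 20.7 against 27.7 and 23.1 CPM. St3gal4 overlapped at 60.3, 13.6, 42.2 and 64.3 CPM, with IgG 2 far below the rest. The value of 0.53 (log2 fold change) became −0.18 without IgG 2.

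Of 8 tested sulfotransferases 1 lay above in both MAdCAM1 libraries and 0 below, beside 19.7% and 18.7% of all genes. The median of 0.10 ranged from −0.33 (without MAdCAM1 2) to 0.39 when 1 library was left out. Chst4, a GlcNAc 6-sulfotransferase that acts on mucin-type glycans, was the member higher in both, at 6.15 and 1.67 CPM with IgG against 15.3 and 14.7 CPM with the antibody. The difference on the log2 scale was 1.94 (SE 0.67; edgeR quasi-likelihood adjusted p = 0.715), and it was 3.15 without IgG 1 and 1.28 without IgG 2. The chondroitin sulfotransferases Chst11 (9.11, 13.4, 6.51 and 11.1 CPM) and Chst12 (10.2, 6.12, 4.97 and 16.6 CPM) overlapped. Chst14, of dermatan sulfate, stood at 4.33, 3.90, 4.27 and 4.99 CPM. Chst1 had 15, 14, 4 and 19 tags and Chst2 71, 85, 25 and 102, each lowest in MAdCAM1 1 and highest in MAdCAM1 2.

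Several low members shared that order between the MAdCAM1 mice, and they were picked out after their values were seen. A4galt, which makes the globoside Gb3, stood at 4.38, 12.1, 3.71 and 15.3 CPM, and the polysialyltransferase St8sia4 at 3.24, 4.45, 1.75 and 9.39 CPM. Man1c1 stood at 2.05, 5.07, 1.82 and 7.58 CPM. In each, IgG 2 and MAdCAM1 2 were above IgG 1 and MAdCAM1 1, as were the fibroblast sums of 399, 1153, 424 and 1506 CPM and the endothelial sums of 23.3, 38.2, 13.3 and 49.3 CPM. Sums of macrophage markers (140, 480, 127 and 489 CPM), neutrophil markers (285, 511, 196 and 735 CPM) and T cell markers (23.8, 24.4, 12.3 and 41.8 CPM) had that order too. For T cells the 2 IgG sums nearly met: Cd3d and Cd4 were higher in IgG 2, and Cd3g and Cd3e in IgG 1. Other low members with MAdCAM1 2 above MAdCAM1 1 had IgG 1 above IgG 2 instead. They include Chst12, St3gal2 (13.9, 6.31, 2.66 and 13.5 CPM), St6galnac3 (2.39, 1.67, 0.770 and 4.66 CPM) and St3gal5 (1.14, 0.742, 0.350 and 1.49 CPM). The part of the listed cell types in the member values was not tested.

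The supply of sugars to these enzymes was compared through lists of genes outside the enzyme families. Of 24 genes that make nucleotide sugars, 17 were higher in both MAdCAM1 libraries and 0 lower in both, beside 19.7% and 18.7% of all genes. Their median was 0.37. Gfpt1, the entry enzyme of the hexosamine pathway, stood at 92.7 and 65.8 CPM (IgG) against 214 and 215 CPM (MAdCAM1) (log2 fold change 1.44, SE 0.22). Gmds, which makes GDP-fucose, stood at 111 and 80.6 against 215 and 273 CPM. Gne, the entry enzyme of sialic acid synthesis, stood at 147 and 130 against 273 and 242 CPM, and Nans, which follows it, at 149 and 89.9 against 259 and 298 CPM. The 4 genes had edgeR quasi-likelihood adjusted p-values of 0.640 to 0.671. They are the 4 of the 24 that DESeq2 called as higher (adjusted p of 2.9e-05 to 0.0176), beside 1.54% of all genes.

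Transporters that carry nucleotide sugars into the Golgi were higher in both for 9 of 13 tested genes and lower in both for 0. Of all tested genes, 19.7% were higher in both and 18.7% lower in both. The median of the transporters was 0.34. Slc35a1, for CMP-sialic acid, stood at 46.9 and 26.4 CPM with IgG against 103 and 97.4 CPM with the antibody. Slc35a2, for UDP-galactose, stood at 35.8 and 22.6 against 68.7 and 67.5 CPM, and Slc35a3, for UDP-GlcNAc, at 108 and 104 against 189 and 176 CPM. Oligosaccharyltransferase subunits, dolichol enzymes and glucosidases together had 15 of 23 higher in both and 1 lower in both, but with a smaller median of 0.16. Other glycosyltransferases outside the families had 4 of 12 higher in both and 3 lower in both, beside 19.7% and 18.7% of all genes. Among them Abo, of the blood group A and B antigens, stood at 1.59 and 1.67 against 8.89 and 8.74 CPM (log2 fold change 2.43, SE 0.31; DESeq2 adjusted p = 0.000169).

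Carriers of the O-glycans went the same way: 5 of 7 tested mucin genes were higher in both and 1, Muc6, lower in both. For this and the marker lists below, the shares over all tested genes were 19.7% higher and 18.7% lower. Mucin tags summed to 894 and 437 CPM (IgG) against 2967 and 2104 CPM (MAdCAM1). The 10 goblet cell markers, of which 8 were higher in both, summed to 2717 and 1164 against 10345 and 7268 CPM. For absorptive colonocytes 8 of 10 markers were higher in both, and the sums were 706 and 466 against 1723 and 1327 CPM. Enteroendocrine sums were 99.9 and 34.5 against 147 and 195 CPM, with 5 of 6 tested markers higher in both. The remaining marker, Cpe, overlapped at 77.2 and 28.9 against 16.7 and 44.9 CPM, and it made up most of both IgG sums. The quasi-likelihood test called no member of these lists. DESeq2 called 5 goblet, 6 colonocyte, 2 enteroendocrine and 2 mucin genes as higher, and the exact test 4, 5, 2 and 2. Over all genes, DESeq2 called 1.54% and the exact test 1.03% as higher. The order MAdCAM1 above IgG 1 above IgG 2 was shown by the sums of these lists, though not by every marker in them. Of the 40 members higher in both MAdCAM1 libraries, 32 had that order. They included all 14 with a fold change of at least 2. IgG 2 was the lowest library for 30.1% of all tested genes, whatever the order of the others. The share of all genes with the full order was not counted. The part of goblet cells, colonocytes and enteroendocrine cells in the enzyme values was not tested.

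**Figure D4:**
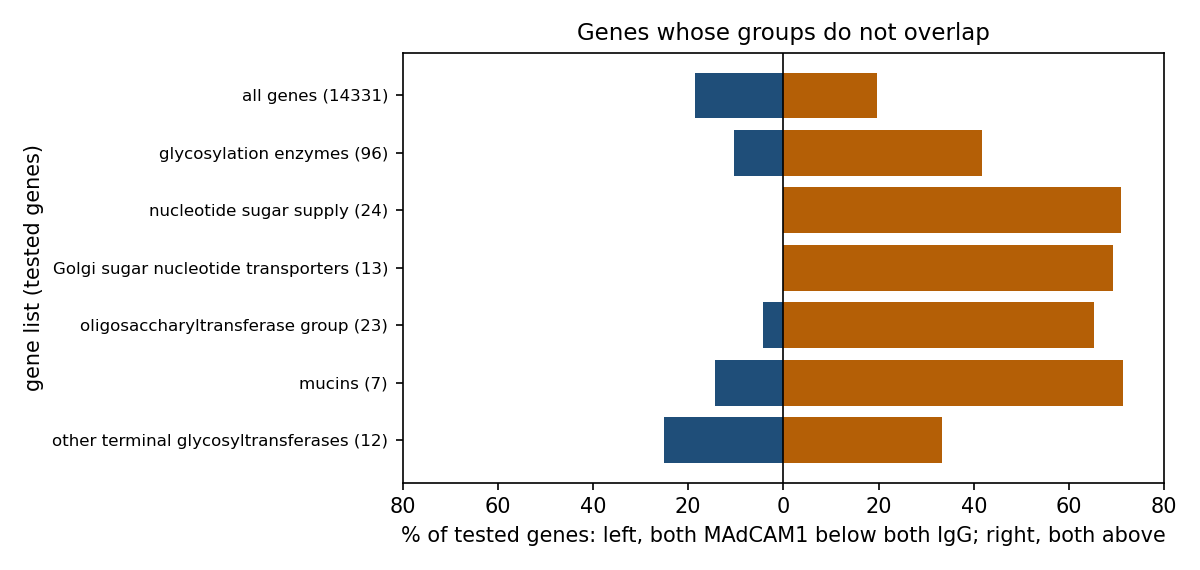
Share of tested genes (horizontal axis, %) whose 2 MAdCAM1 libraries both lay above (right, orange) or both below (left, blue) both IgG libraries, for all genes, the glycosylation enzymes and 5 related lists. The enzymes show 40 of 96 above and 10 below, and nucleotide sugar supply shows 17 of 24 above and 0 below, beside 19.7% and 18.7% of all genes.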

How the data were processed

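CAGE libraries of 4 colon tumours (2 per antibody group) were analysed from the deposited table of raw tag counts per gene. Per the labels' protocols, the authors aligned reads to GRCm39 with BWA 0.7.17, then the remaining reads with HISAT2 2.0.5. The RECLU pipeline built tag clusters, dropped weak, long or irreproducible ones (bedtools 2.12.0 gave the overlap between replicates) and called genes with edgeR 3.22.5. How clusters were summed to genes, and whether by strand, is not given in the sources used here.

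filterByExpr kept 14331 of 14979 genes. After TMM scaling, the main test was the quasi-likelihood test of edgeR 4.0.16 in R 4.3.3 with robust dispersions. P-values were adjusted by Benjamini and Hochberg's method over every tested gene, at a threshold of 0.05. The spread was estimated from 2 mice per group, partly pooled over genes. Replicate numbers belong to different mice, so no block was used. DESeq2 1.42.0, limma-voom (limma 3.58.1), edgeR's exact test, other scalings and filters, and leaving out each library were the alternatives. Each tool was first tried on simulated counts of known fold changes. There DESeq2 and the exact test made more false calls than the quasi-likelihood test and limma-voom. They also recovered more of the planted 2-fold and 4-fold changes, many of which the quasi-likelihood test and limma-voom missed. Every tool made some false calls and recovered most of the larger planted changes. In the real libraries the quasi-likelihood test and limma-voom called no gene at any fold change, so the simulated setting does not match these data. Gene coordinates are from GENCODE M39.

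Members and lists were chosen with earlier results of these data known. Named genes were all Mgat members, the up to 4 with the smallest p in each step, and a set of enzymes given by name. Of that set, B3gnt6, Gcnt3, St6gal1, St6galnac1 and Chst5 are not analysed here. In 5 members (Alg10b, Mgat5b, Galnt2l, Galnt4, Chst7) the counts equal those of another gene in all libraries. No protein sequences were used.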

Additional observations from a re-analysis of the deposited data

How the results depend on the processing

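With 2 mice per group, a library left out leaves a single mouse in its group, which is then assumed to vary like the others. The count of members higher in both MAdCAM1 libraries was then 47 to 57 and that of members lower in both 18 to 25, while the same shares of all genes were 33.1 to 35.1% and 32.5 to 38.7%. The median over members was 0.14 to 0.29 with a library left out. By step the ranges were 0.019 to 0.17 for precursor assembly, −0.23 to 0.19 for mannose trimming, 0.20 to 0.57 for branching, 0.14 to 0.49 for O-glycan initiation, 0.30 to 0.73 for the O-glycan core, 0.09 to 0.32 for chain extension, 0.27 to 0.75 for fucosylation, 0.018 to 0.73 for sialylation and −0.33 to 0.39 for sulfation. The lowest values of the last 2 steps and of mannose trimming came without MAdCAM1 2. The lowest value of precursor assembly came without IgG 1. Library size scaling moved the median of all genes to −0.10, the members' median to 0.12 and the members lower in both to 16, with 33 higher in both (13.6% and 28.6% of all genes higher and lower). Relative to the 5 epithelial genes there were 18 higher and 35 lower, against 4.47% and 61.3% of all genes. Each median was then less by the same amount. It was −0.26 for all members, −0.32 for precursor assembly, −0.43 for mannose trimming, −0.10 for branching and −0.17 for initiation. For the later steps it was 0.031 for the O-glycan core, −0.27 for extension, −0.065 for fucosylation, −0.0074 for sialylation and −0.38 for sulfation. DESeq2 called 221 genes higher and 21 lower over all genes, with 6 and 1 members, and the exact test 148 and 9, with 4 and 0 members. Both called Mgat4c, at log2 fold changes of 2.00 (adjusted p = 5.81e-16) and 2.01 (adjusted p = 3.25e-08), where edgeR's quasi-likelihood test had 0.640. The cause of the gap between tools was not tested. The Mgat4c log2 fold change was 1.53 relative to the epithelial genes and 1.89 to 2.12 under the other alternatives, where its adjusted p was 5.81e-16 to 0.999.

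The named genes that changed sign with a library left out were Mgat2 (−0.43 to 0.13), B4galnt2 (−0.27 to 2.37), Man1a2 (−0.010 to 0.46), Galnt3 (−0.0054 to 0.48), Fut9 (−0.22 to 1.53), St3gal4 (−0.18 to 1.96), Chst1 (−1.59 to 0.51), Chst2 (−1.40 to 0.51) and Chst12 (−0.71 to 1.02). With the replicate block, 0 genes and 0 members were called, as without it, and the Mgat4c log2 fold change was 2.01 (adjusted p = 0.363). The deviations of same-numbered libraries correlated at −0.14 over genes. A crossed replicate block, added after the data were seen, called 0 genes and 0 members. Galnt5, Chst1 and St8sia5 rest on few tags, so depth limits their values. Without the 5 members that share counts, an alternative added after the data were seen, 39 were higher in both and 9 lower in both.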
